A study of Arabis alpina with 12 samples.

Results

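The zone by time interaction is the difference between how much a transcript changed in growing buds and how much it changed in dormant buds over the first 5 days after cold. It was taken as the change in V3 (5 d minus 0 d) minus the change in V2 (5 d minus 0 d), on log2(normalized count + 1), in lateral buds of Arabis alpina, a perennial relative of Arabidopsis thaliana. Of 19722 genes in the table of counts, 16077 could be tested, and for 1243 of these (7.73%) the changes in the 2 zones differed at a limma adjusted p under 0.05. The interaction was positive in 702 genes (4.37% of those tested, written as higher below) and negative in 541 (3.37%, written as lower). All 12 libraries of the series entered the test, 3 in each of 4 groups.

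Plants of the ecotype Pajares were grown for 8 weeks in long days, with 16 h of light at 20 °C and 8 h of dark at 18 °C. They were then vernalized for 12 weeks at 4 °C, still with 16 h of light. The groups were buds of the growing zone (V3) taken 5 days after return to long days (5 d) or at the end of vernalization (0 d), and buds of the dormant zone (V2) taken at the same times. The submitters call the 3 libraries of a group biological replicates, but the labels used here do not say how many plants or buds went into each, so the p-values measure the spread between these libraries. No transgene, mutant or chemical treatment was part of any group, and all 4 groups had been through the cold.

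Axillary buds hold a small shoot meristem that either grows out or stays arrested. In A. thaliana, arrested buds express homeobox genes and abscisic acid genes that act below the branching repressor BRC1, and genes that respond to low sugar. Buds that grow out take up sugar, divide, and draw on nitrate and sulphate for new protein and for sulphur-rich defence compounds. An interaction test asks which of these programmes took different courses in the 2 zones once the plants were warm, which neither zone's own change over time can answer alone. BRC1 was not paired with any gene in the tables used here and was not analysed.

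The libraries held 12252622 to 22586938 reads counted on genes, as recovered from the normalized values. The table listed 17205 zeros that were contradicted by another library of the same group (20 or more normalized counts) or by an FPKM of 1 or more, and these were left out library by library. V2 0 d replicate 3, the shallowest library, held 6541 of them (33.2% of its genes), while each other library held 881 to 1213. V3 0 d replicate 1 stood apart from its partners, lying at -78.7 on a first principal component (38.5% of the variance) where the other V3 libraries at 0 d lay at -42.1 and -54.0. With every zero kept as deposited, 764 genes were called, 339 higher and 425 lower, and the median interaction of all genes was -0.264, against -0.005 with them left out. Without V3 0 d replicate 1, the test called 1979 genes, and without V2 0 d replicate 3 it called 1057. The count was between 731 and 771 without V3 5 d replicates 1, 2 and 3, V2 5 d replicates 1 and 2 and V2 0 d replicates 1 and 2 in turn. The standard error of the interaction had a median of 0.295 on the log2 scale, against 0.205 for the change in V3 alone.

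Genes are named below through their A. thaliana homologues, which the tables pair only with genes that the authors listed as changed between groups of these same libraries. They are a selected set: 499 of the 2338 tested genes with a homologue (21.3%) had an interaction, 292 of them higher (12.5%) and 207 lower (8.85%). Their median interaction was 0.40, against -0.005 over all genes tested. Counts within a gene list are therefore read against 21.3%, 12.5% and 8.85%. Of the genes with a homologue, 54.8% changed in V3 (37.7% rose and 17.2% fell) and 49.3% changed in V2 (31.2% rose and 18% fell), and counts of list members that changed within a zone are read against these shares. Of the 24 meristem and boundary genes taken as markers of bud tissue, 7 were tested, and all 7 were detected in each of the 4 groups. In bulk tissue, fewer cells of a type and less RNA per cell cannot be told apart.

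The called genes fell into a few patterns when the change of each zone was tested by itself in the same fit. Over all genes tested, 25% changed in V3 (13.7% rose and 11.3% fell) and 24% changed in V2 (12.7% rose and 11.3% fell). Among the 1243 genes with an interaction, 542 (43.6%) changed in V3 but were not called in V2: 313 rose in V3 and 229 fell. A further 443 (35.6%) changed in V2 but were not called in V3, of which 201 rose in V2 and 242 fell. In 98 genes (7.88%) both zones changed and in opposite directions, 41 rising in V3 while falling in V2 and 57 falling in V3 while rising in V2. Both zones moved the same way to a different extent in 124 genes, and in 36 neither zone's own change was called. Seen as differences between the zones, 963 of the 1243 genes (77.5%) were called between V3 and V2 at 5 d and not called at 0 d, 488 with more transcript in V3 and 475 with less. In 163 genes the zone difference was called at 0 d and not at 5 d, and the level at 0 d was lower in V3 in 134 of these and higher in 29. A change or zone difference that was not called is not shown to be absent. Each contrast was adjusted by itself, so the unadjusted p needed for a call was smaller at 0 d than at 5 d. HB53, for example, differed by -1.90 at 0 d (limma adjusted p = 0.0521). Over all genes tested, 37.4% differed between the zones at 5 d (16.9% higher and 20.5% lower in V3) and 5.03% at 0 d (1.28% higher and 3.75% lower in V3).

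**Figure D1:**
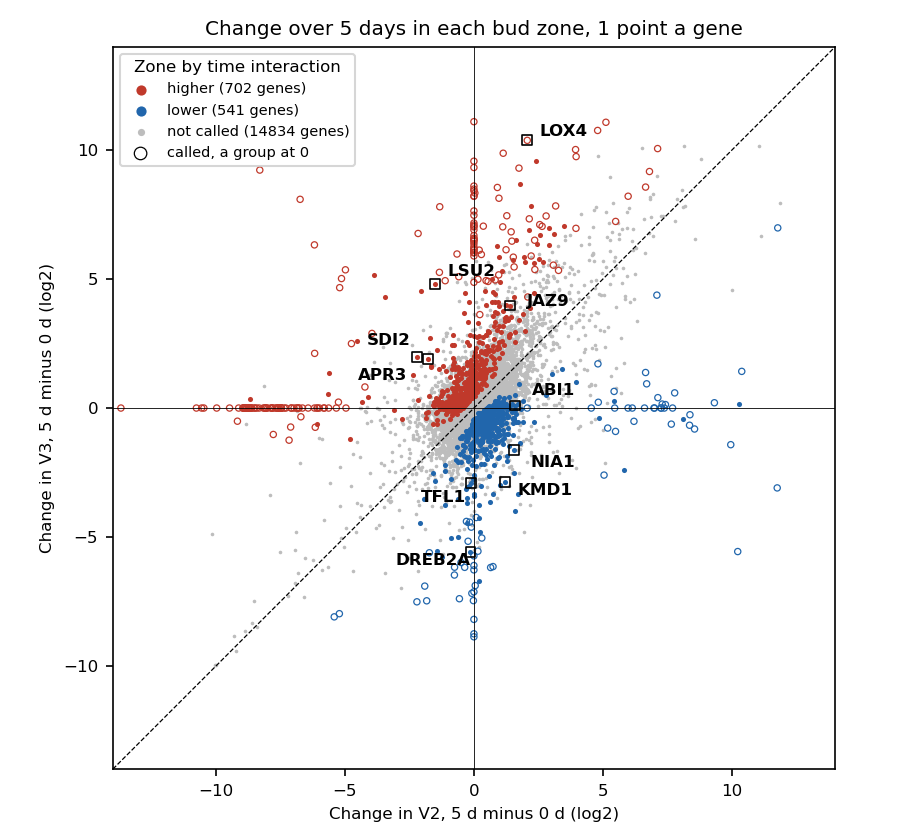
Each point is 1 gene, with its change in V3 (5 d minus 0 d, log2 scale) on the vertical axis and its change in V2 on the horizontal axis; coloured points have an interaction at a limma adjusted p under 0.05, open ones among them were listed at 0 in every usable library of a group, and the squares mark named genes. The 702 genes with a higher interaction lie above the diagonal and the 541 with a lower one below it.

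Part of the V2 pattern came from genes listed at 0 in whole groups. Of the 1243 called genes, 229 were listed at 0 in every usable library of at least 1 group. The most common such pattern was a gene with counts in V2 at 0 d and 0 in the other 3 groups, and 66 of the 71 tested genes of that kind were called. All 66 were among the 242 that fell in V2 with no called change in V3. FPKM values were given for 7 of the 66, and in none of the 7 did the FPKM of V2 at 0 d lie above those of the other 3 groups. Of the 31 tested genes at 0 in V2 at 0 d alone, 16 were called. FPKM values were given for 15 of the 16. In none of the 15 did the FPKM of the other 3 groups all lie above those of V2 at 0 d. Nothing is read from the 16 calls. Of the 32 tested genes with counts only in V3 at 5 d, 31 were called, and for all 4 of those with FPKM values the FPKM of V3 at 5 d was above every other group. Genes with counts in only 1 group passed the minimum mean through that group alone. Nothing is therefore read from the 66 of 71 or the 31 of 32 that were called. Leaving aside every gene with a group at 0, 1014 of the called genes remained, 539 higher and 475 lower. Of these, 465 were called as changed in V3 but not in V2 (260 rose and 205 fell). A further 335 were called in V2 but not in V3 (169 rose and 166 fell), and 89 moved in opposite directions.

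Aa_G31840, a gene with no homologue given, had the smallest adjusted p of the unnamed higher genes. It had 599, 604 and 593 normalized counts in V3 at 5 d and 0 in every usable library of V3 at 0 d, against 0 in every usable library of V2 at 5 d and 283 and 350.4 in V2 at 0 d (1 library left out) (limma adjusted p = 1.16e-08). Its deposited FPKM values were at most 0.739 in any library, so the count and FPKM columns did not give the same picture. Aa_G517440, the unnamed lower gene with the smallest adjusted p, had 245, 214 and 197 normalized counts in V3 at 5 d and 203, 222 and 173 in V3 at 0 d, against 173, 157 and 185 in V2 at 5 d and 0 in every usable library of V2 at 0 d (limma adjusted p = 1.89e-07). Its FPKM values in V2 at 0 d were 0.246, 0.243 and 0.325, although all 3 counts were listed at 0. Neither gene had an interaction at an adjusted p under 0.05 when FPKM values were tested instead. Across the 503 called genes with FPKM values and no group at 0, 501 had the same sign in FPKM and 467 were called the same way. In 1 of the 503, Aa_G727680, a gene with no homologue given and named after its values were seen, the call was opposite, with an interaction of -5.17 in counts and 2.51 in FPKM. Across the 104 with a group at 0, the sign was the same in 88 and the call in 40.

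**Figure D2:**
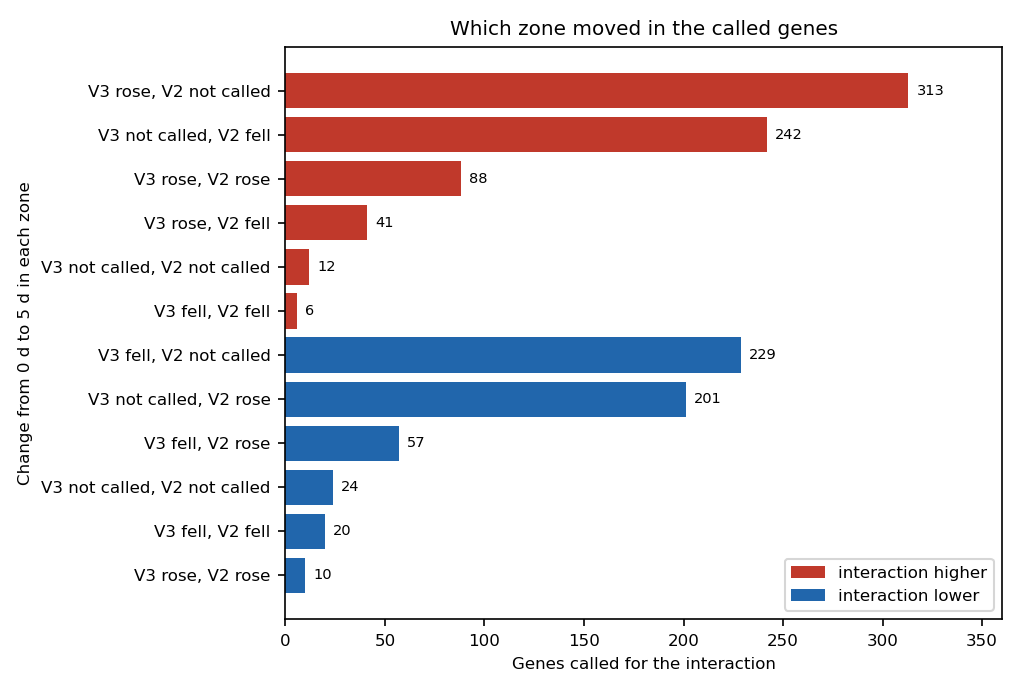
Bars give the number of called genes in each pattern of change, named on the vertical axis by what each zone did and coloured by the sign of the interaction. Genes called as changed in V3 but not in V2 (542) and in V2 but not in V3 (443) make up most of the 1243.

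Genes of sulphur nutrition rose in V3. LSU2 (Aa_G392350), a small protein induced in A. thaliana when sulphur is short, had 526, 159 and 398 normalized counts in V3 at 5 d and 6.2, 18.2 and 10.2 in V3 at 0 d, against 11.4, 11.9 and 9.9 in V2 at 5 d and 59.3, 13.1 and 47.6 in V2 at 0 d. Its 3 libraries of V3 at 5 d were above all 9 others. The interaction was 6.33 ± 0.86 (SE, limma adjusted p = 0.00138), with a log2 change of 4.80 in V3 and -1.52 in V2. SDI2 (Aa_G477790), a sulphur-deficiency gene whose product lowers glucosinolate synthesis in A. thaliana, had 918, 552 and 992 normalized counts in V3 at 5 d and 189, 186 and 234 in V3 at 0 d, against 88.8, 128 and 88.9 in V2 at 5 d and 315, 455 and 704 in V2 at 0 d. It rose in V3 and fell in V2, and the 2 zones ended at 5 d with no overlap. Its interaction was 4.18 ± 0.44 (SE, limma adjusted p = 1.82e-04), with a log2 change of 1.97 in V3 and -2.20 in V2. APR3 (Aa_G117440), a reductase of activated sulphate on the way to cysteine, had 2107, 1210.4 and 2081 normalized counts in V3 at 5 d and 578, 375 and 469 in V3 at 0 d, against 229.9, 274 and 271 in V2 at 5 d and 646, 744 and 1412 in V2 at 0 d. The interaction of APR3 was 3.67 ± 0.43 (SE, limma adjusted p = 4.41e-04), with a log2 change of 1.90 in V3 and -1.77 in V2. It too rose in V3 and fell in V2.

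SDI1, the close relative of SDI2, had 2616, 1409.9 and 2889 normalized counts in V3 at 5 d and 0 in every usable library of V3 at 0 d, against 0 in every usable library of V2 at 5 d and 0 in every usable library of V2 at 0 d (1 library left out). It passed the minimum mean only through V3 at 5 d, where it was high, so its call is not given as support. Its FPKM values gave the same picture, at 67 or more in V3 at 5 d and at most 1.31 elsewhere. APK, a kinase that makes the sulphate donor for sulphation, had 760.1, 719 and 1018 normalized counts in V3 at 5 d and 242, 291 and 367 in V3 at 0 d, against 369.9, 467 and 378 in V2 at 5 d and 471, 411 and 343 in V2 at 0 d. The libraries of V3 at 5 d were again above all others, with an interaction of 1.48 ± 0.28 (SE, limma adjusted p = 0.011). A list of 24 sulphur starvation and assimilation genes was drawn up after these values had been seen. Of its 8 tested members 6 were called, all higher, with a median interaction of 3.92, and nothing is read from this share since the choice of members fixed it. All 8 rose in V3 (37.7% of genes with a homologue did), while 2 fell and 1 rose in V2 (18% and 31.2% did). Nothing is read from these counts or from the median, since the members were chosen after their values had been seen. Both also include SDI1 and GGCT2;1, which were high only in V3 at 5 d. The sixth called member, GGCT2;1, a cyclotransferase that recycles glutathione, had 405, 203 and 694 normalized counts in V3 at 5 d and 11.5 and 0 in V3 at 0 d (1 library left out), against 0 in every usable library of V2 at 5 d (1 library left out) and 19.1 and 0 in V2 at 0 d (1 library left out). Like SDI1, GGCT2;1 passed the minimum mean only through V3 at 5 d, so its call is not given as support. The call of GGCT2;1 ended without V3 5 d replicates 1, 2 and 3 and V2 5 d replicate 1 in turn, and the runs in which it held took no value of it away. With 1 library left out, 4 to 7 members were called.

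Genes of glucosinolates, the sulphur-rich defence compounds of Brassicaceae, shared the rise in V3. SOT16, the sulphotransferase that completes the core structure in A. thaliana, had 389.8, 485 and 755 normalized counts in V3 at 5 d and 10.3, 25.9 and 16.7 in V3 at 0 d, against 139, 126 and 83.5 in V2 at 5 d and 116, 52.2 and 29.5 in V2 at 0 d. It was low in V3 at 0 d and highest in V3 at 5 d, with no overlap between those 2 groups. Its interaction was 3.91 ± 0.70 (SE, limma adjusted p = 0.00779), with a log2 change of 4.90 in V3 and 0.99 in V2. SUR1, the lyase of the core pathway, had 2092, 2461 and 2761 normalized counts in V3 at 5 d and 1114, 1197 and 986 in V3 at 0 d, against 1576, 1672 and 1282 in V2 at 5 d and 2228, 1547 and 1588 in V2 at 0 d. The interaction of SUR1 was 1.38 ± 0.23 (SE, limma adjusted p = 0.00569), with a log2 change of 1.14 in V3 and -0.23 in V2. Of 4 tested glucosinolate genes SUR1 was the 1 called (25%, against 12.5% of genes with a homologue called higher). All 4 rose in V3 (37.7% of genes with a homologue did) and 1 rose in V2. The median interaction was 1.36, and 2 were called without V2 0 d replicate 2. MYB34, which switches on indole glucosinolate genes in A. thaliana, had an interaction of 1.54 ± 0.47 (SE, limma adjusted p = 0.0776). A second list, of late-step and transport genes, was drawn up after seeing the values. Of its 5 tested members 3 were called higher (60%, against 12.5% of genes with a homologue). All 5 rose in V3 (37.7% of genes with a homologue did). Nothing is read from these counts, since the choice of members fixed them. Besides SOT16, the called members were SOT17 (1.61 ± 0.43, limma adjusted p = 0.0481) and FMOGS-OX1 (1.02 ± 0.27, limma adjusted p = 0.0472), a side-chain oxygenase. The call of SOT17 held without V2 0 d replicate 2 and ended without each other library. The call of FMOGS-OX1 held without V2 5 d replicate 2 and ended without each other library. The number of called late-step members changed to 1 without V3 5 d replicates 1, 2 and 3, V3 0 d replicates 1 and 3, V2 5 d replicate 3 and V2 0 d replicates 1 and 3 in turn.

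Several other genes climbed in V3 with no called change in V2, or far more steeply in V3. CP2, a papain-like cysteine protease, had 9823, 9610.4 and 9723 normalized counts in V3 at 5 d and 183, 396 and 198 in V3 at 0 d, against 268, 201 and 128 in V2 at 5 d and 67.6, 164 and 61.2 in V2 at 0 d. All 3 libraries of V3 at 5 d lay above every other library. Its interaction was 4.21 ± 0.58 (SE, limma adjusted p = 0.0015), with a log2 change of 5.32 in V3 and 1.11 in V2. AT5G38130, annotated as an acyltransferase, had 401, 1093 and 439 normalized counts in V3 at 5 d and 1, 6.7 and 0 in V3 at 0 d, against 54.6, 66.4 and 28.7 in V2 at 5 d and 11.9, 7 and 10.2 in V2 at 0 d. The interaction was 5.66 ± 0.97 (SE, limma adjusted p = 0.00595), with a log2 change of 7.85 in V3 and 2.20 in V2. GPT2, which moves glucose 6-phosphate into plastids, had 1027, 1181 and 1253 normalized counts in V3 at 5 d and 175, 118 and 71.6 in V3 at 0 d, against 330.1, 132 and 167 in V2 at 5 d and 319, 129 and 292 in V2 at 0 d. It rose in V3, and its V2 groups overlapped. The interaction of GPT2 was 3.56 ± 0.62 (SE, limma adjusted p = 0.00661), with a log2 change of 3.32 in V3 and -0.24 in V2. GL3, a transcription factor of trichomes and flavonoid genes in A. thaliana, had an interaction of 1.59 ± 0.20 (SE, limma adjusted p = 8.60e-04), with log2 changes of 1.43 in V3 and -0.17 in V2. The photosynthetic markers, which mark green leaf tissue, moved with these genes: the summed level of the 3 tested markers was 23126 to 29407 in V3 at 5 d and 11581 to 17901 in V3 at 0 d, against 11437 to 15448 in V2 at 5 d and 9585 to 15989.7 in V2 at 0 d. Of the 3, only PSAN was called (0.86 ± 0.23, adjusted p = 0.0472), a share of 33.3% against 12.5% of genes with a homologue. None of the 3 was at 0 in any group. The call of PSAN held without V2 0 d replicate 3 and ended without each other library. Their part in the rises in V3 was not tested.

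**Figure D3:**
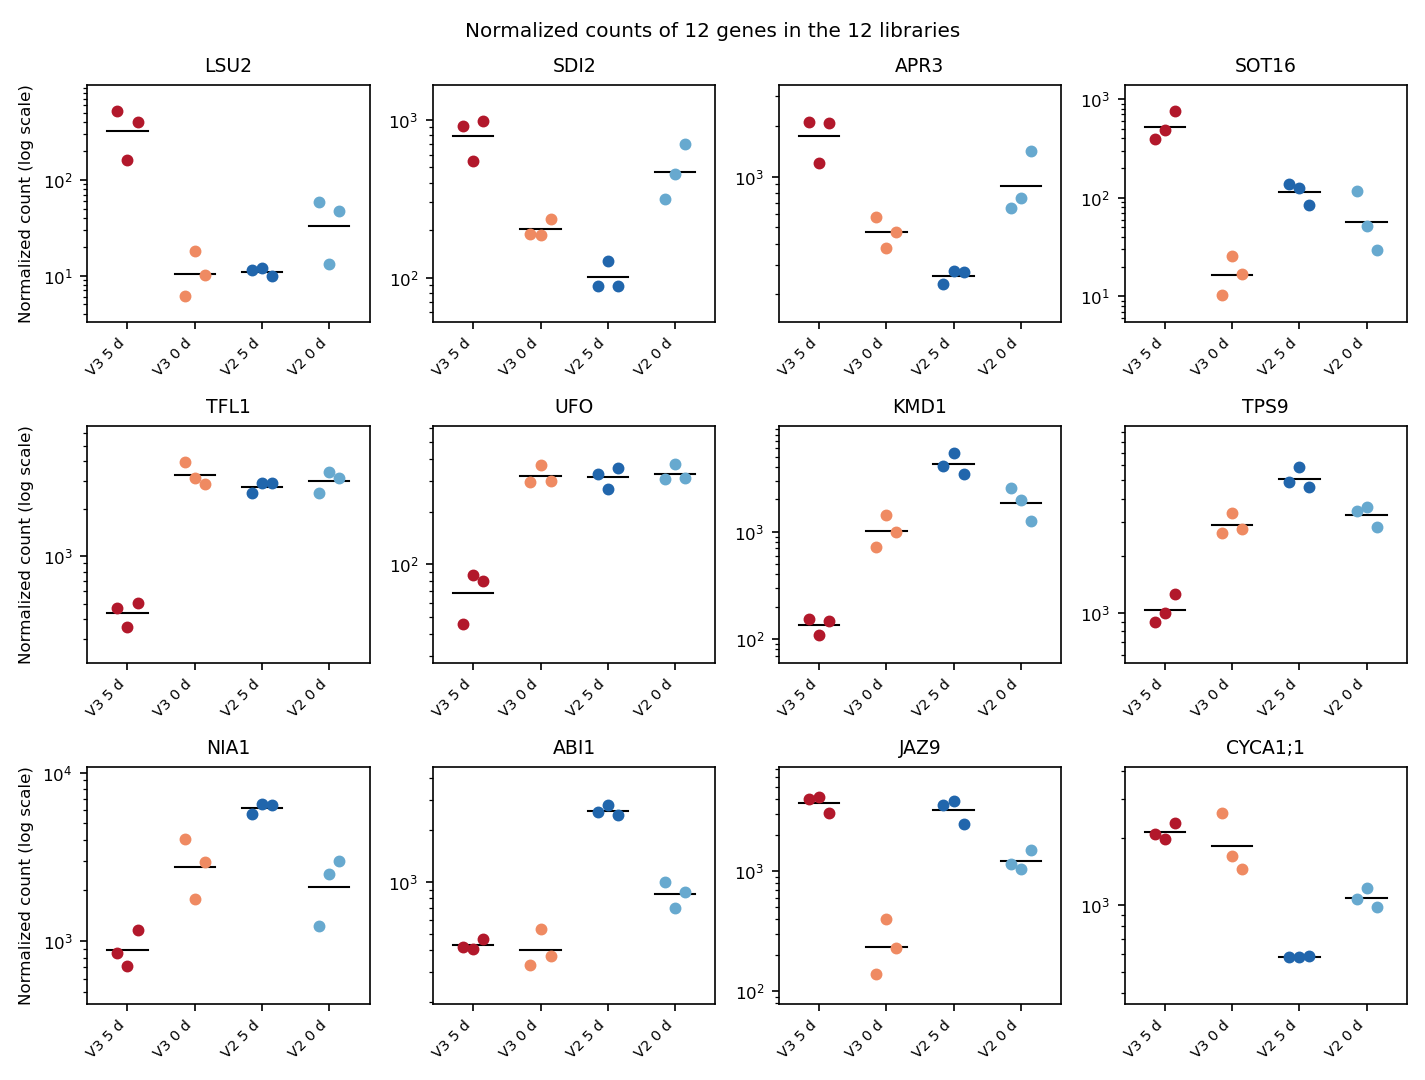
Normalized counts (log axis) of 12 genes in each of the 12 libraries, with V3 at 5 d, V3 at 0 d, V2 at 5 d and V2 at 0 d from left to right; each point is 1 library and each line the geometric mean of its group. LSU2 and SOT16 are highest and TFL1 and UFO lowest in V3 at 5 d, while KMD1, TPS9 and NIA1 move in opposite directions in the 2 zones.

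The tested genes that respond to low sugar did the reverse, falling in V3 and rising in V2. Of the 19 genes on the sugar starvation list 3 were tested. All 3 were called lower (100%, against 8.85% of genes with a homologue), with a median interaction of -2.12. All 3 fell in V3 and all 3 rose in V2 (17.2% and 31.2% of genes with a homologue did). The list was chosen with earlier results of these data known, so these shares are not independent support. TPS9, a trehalose phosphate synthase-like protein, had 901, 1000.4 and 1253 normalized counts in V3 at 5 d and 2651, 3362 and 2766 in V3 at 0 d, against 4892, 5912 and 4622 in V2 at 5 d and 3447, 3618 and 2852 in V2 at 0 d. V3 at 5 d was the lowest group and V2 at 5 d the highest, with no overlap with any other group. Its interaction was -2.12 ± 0.22 (SE, limma adjusted p = 1.52e-04), with a log2 change of -1.48 in V3 and 0.64 in V2. TPS11, of the same class, had 736, 625 and 895 normalized counts in V3 at 5 d and 1077, 1723 and 1489 in V3 at 0 d, against 3047, 3483 and 2736 in V2 at 5 d and 2199, 2011 and 2002 in V2 at 0 d, and an interaction of -1.49 ± 0.25 (SE, limma adjusted p = 0.00573). BZIP1, a transcription factor of the low-energy response in A. thaliana, had 64.3, 41.2 and 46.8 normalized counts in V3 at 5 d and 87.1, 153 and 109.8 in V3 at 0 d, against 418, 434 and 386 in V2 at 5 d and 206, 189 and 156 in V2 at 0 d. The interaction of BZIP1 was -2.34 ± 0.34 (SE, limma adjusted p = 0.00237), with a log2 change of -1.17 in V3 and 1.17 in V2. All 3 calls held without each of the 12 libraries in turn.

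Among nitrate assimilation genes, NIA1 and NIR1 likewise fell in V3 and rose in V2. NIA1, a nitrate reductase, had 847, 713 and 1163 normalized counts in V3 at 5 d and 4044, 1784 and 2947 in V3 at 0 d, against 5693, 6486 and 6407 in V2 at 5 d and 1226, 2487 and 2977 in V2 at 0 d. The interaction was -3.21 ± 0.50 (SE, limma adjusted p = 0.0033), with a log2 change of -1.64 in V3 and 1.57 in V2. At 5 d the zones did not overlap, while at 0 d they did. NIR1, the nitrite reductase that takes the next step, had 433, 458 and 625 normalized counts in V3 at 5 d and 1771, 904 and 1351 in V3 at 0 d, against 1397, 1443 and 1358 in V2 at 5 d and 555, 888 and 957 in V2 at 0 d. Its interaction was -2.22 ± 0.37 (SE, limma adjusted p = 0.00513), with a log2 change of -1.37 in V3 and 0.85 in V2. NIA2, the second nitrate reductase, had 921, 682 and 997 normalized counts in V3 at 5 d and 963, 1098 and 986 in V3 at 0 d, against 9312, 8314 and 8661 in V2 at 5 d and 2329, 2042 and 4774 in V2 at 0 d. It rose in V2, and its change in V3 was not called. The interaction of NIA2 was -1.87 ± 0.38 (SE, limma adjusted p = 0.0147), with a log2 change of -0.25 in V3 and 1.63 in V2. These 3 were the tested members of a list of 9 drawn up after their values had been seen, and their median interaction was -2.22. MOT2, a vacuolar exporter of molybdate, the metal of the nitrate reductase cofactor, had 31.2, 39 and 41.2 normalized counts in V3 at 5 d and 311, 281 and 341 in V3 at 0 d, against 517, 620.0 and 478 in V2 at 5 d and 414, 364 and 553 in V2 at 0 d. Its interaction was -3.33 ± 0.28 (SE, limma adjusted p = 2.46e-05), with a log2 change of -3.04 in V3 and 0.29 in V2. Here V3 at 5 d was below all other libraries and the V2 groups overlapped. Markers of senescing leaves moved with the rises of the sugar starvation and nitrate genes in V2: the summed level of the 2 tested markers, of 8 listed, was 373 to 623 in V3 at 5 d and 154 to 259 in V3 at 0 d, against 1827 to 2158 in V2 at 5 d and 524 to 725 in V2 at 0 d. Both markers rose in V2 and 1 rose in V3 (31.2% and 37.7% of genes with a homologue did). In V3 the sugar starvation genes, NIA1 and NIR1 fell. Neither marker had a called interaction, and neither marker was at 0 in any group. Their part in the rises in V2 was not tested.

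KMD1, an F-box protein that marks cytokinin response regulators for degradation in A. thaliana, had 154, 109.7 and 149 normalized counts in V3 at 5 d and 728, 1420.1 and 993 in V3 at 0 d, against 4108, 5363 and 3487 in V2 at 5 d and 2550.1, 1989.8 and 1252 in V2 at 0 d. The 2 zones moved apart, and at 5 d the highest library of V3 was below the lowest of V2. Its interaction was -4.08 ± 0.42 (SE, limma adjusted p = 1.66e-04), with a log2 change of -2.88 in V3 and 1.20 in V2. AT3G19030, a protein of unknown function in the files, had 7.8, 13.7 and 15.9 normalized counts in V3 at 5 d and 138, 128 and 127 in V3 at 0 d, against 618, 552 and 513 in V2 at 5 d and 209, 129 and 177 in V2 at 0 d. The interaction of AT3G19030 was -5.07 ± 0.38 (SE, limma adjusted p = 9.94e-06), with a log2 change of -3.34 in V3 and 1.73 in V2. AT1G49500, also of unknown function, had an interaction of -3.13 ± 0.42 (SE, limma adjusted p = 0.00134), falling in V3 (-1.85) and rising in V2 (1.28). ATCTH, a CCCH zinc finger protein, had an interaction of -2.87 ± 0.53 (SE, limma adjusted p = 0.0095), with a fall of V3 (-1.94) and a V2 change of 0.93 that was not called. AT5G62210, annotated as an embryo-specific protein, had 30.2, 107 and 76.8 normalized counts in V3 at 5 d and 2123, 2043 and 2156 in V3 at 0 d, against 1127, 1918 and 1744 in V2 at 5 d and 2441, 2492 and 3949 in V2 at 0 d. It fell in V3, where its libraries at 5 d were below all others, with an interaction of -4.15 ± 0.56 (SE, limma adjusted p = 0.00124).

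Clock genes fell in V3. PRR5, a repressor of the morning genes of the clock, had 243, 507 and 239.6 normalized counts in V3 at 5 d and 593, 765 and 553 in V3 at 0 d, against 1959.9, 2276 and 2322 in V2 at 5 d and 605, 707 and 1034 in V2 at 0 d. The interaction was -2.54 ± 0.41 (SE, limma adjusted p = 0.00408), with a log2 change of -1.03 in V3 and 1.52 in V2. It fell in V3 and rose in V2, and at 5 d the zones did not overlap. ELF4, a subunit of the evening complex, had 5.8, 17.9 and 8.4 normalized counts in V3 at 5 d and 106, 163 and 174 in V3 at 0 d, against 176, 283 and 255 in V2 at 5 d and 247, 115 and 290.0 in V2 at 0 d. The libraries of V3 at 5 d were below all others, while the 2 groups of V2 overlapped. The interaction of ELF4 was -3.98 ± 0.63 (SE, limma adjusted p = 0.00359), with a log2 change of -3.76 in V3 and 0.21 in V2. All 4 tested clock genes fell in V3 (17.2% of genes with a homologue did), 1 rose in V2, and 2 were called, both lower (50%, against 8.85%), with a median interaction of -2.66. BOA, a relative of the evening complex gene LUX, had an interaction of -2.77 ± 0.76 (SE, limma adjusted p = 0.0518) and was not called. The labels used here do not give the hour of harvest.

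Of 11 tested cold-response genes 2 were called, both lower, with a median interaction of -1.26. Their share of 18.2% stands beside 21.3% of genes with a homologue called either way and 8.85% called lower. The count of 2 changed to 1 without V3 5 d replicates 1 and 3 and V3 0 d replicates 2 and 3 in turn. Of the 11, 3 rose and 2 fell in V3 (37.7% and 17.2% of genes with a homologue did), with a median change of -0.14. In V2, 5 rose and 1 fell (31.2% and 18% did), with a median change of 1.21. The 2 that fell in V3 were COR28 and GOLS3. COR28, a cold gene that also acts on the clock, had 10.7 and 3.7 normalized counts in V3 at 5 d (1 library left out) and 126, 192 and 182 in V3 at 0 d, against 118, 178 and 188 in V2 at 5 d and 264, 182 and 147 in V2 at 0 d. Its interaction was -4.19 ± 0.57 (SE, limma adjusted p = 0.00213). GOLS3, a galactinol synthase of the cold response, had 0 in every usable library of V3 at 5 d and 303 and 103 in V3 at 0 d (1 library left out), against 211, 185 and 149 in V2 at 5 d and 625, 517 and 820.2 in V2 at 0 d (limma adjusted p = 2.26e-04). In FPKM, GOLS3 had 0.144, 0.156 and 0 FPKM in V3 at 5 d and 1.29, 12 and 4.88 in V3 at 0 d, against 7.47, 7.02 and 5.95 in V2 at 5 d and 23.9, 18.3 and 31.3 in V2 at 0 d, and it was not called there. DREB2A, a transcription factor of the drought and heat response and on none of the lists, had 9.7, 23.2 and 3.7 normalized counts in V3 at 5 d and 486, 564 and 496 in V3 at 0 d, against 676, 842 and 569 in V2 at 5 d and 713, 563 and 1065 in V2 at 0 d. V3 at 5 d was below all other libraries, and the 2 groups of V2 overlapped. Its interaction was -5.45 ± 0.68 (SE, limma adjusted p = 6.98e-04), with a log2 change of -5.59 in V3 and -0.13 in V2. ZAT12, a zinc finger gene of cold and oxidative stress, rose in V2 by 1.55 on the log2 scale, but its interaction of -1.57 ± 0.67 (SE, limma adjusted p = 0.185) was not called.

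TFL1, which keeps shoot meristems from turning into flowers and delays flowering, was called with a small error. It had 469.7, 359 and 505 normalized counts in V3 at 5 d and 3975, 3116 and 2870.2 in V3 at 0 d, against 2497, 2895 and 2916 in V2 at 5 d and 2511, 3416 and 3144 in V2 at 0 d. The 3 libraries of V3 at 5 d were below all 9 others, and the other 3 groups overlapped. The interaction was -2.78 ± 0.24 (SE, limma adjusted p = 3.16e-05), with a log2 change of -2.90 in V3 and -0.12 in V2. The call held without each library in turn. SVP, a MADS-box repressor of flowering, had 1710.1, 2306 and 2069 normalized counts in V3 at 5 d and 2355, 3537 and 2897 in V3 at 0 d, against 6291, 5812 and 4737 in V2 at 5 d and 4225, 4001 and 4425 in V2 at 0 d. Its interaction was -0.92 ± 0.23 (SE, limma adjusted p = 0.0367), with a log2 change of -0.52 in V3 and 0.40 in V2. The call of SVP held without V3 5 d replicate 2, V3 0 d replicate 1 and V2 5 d replicate 3 in turn and ended without each other library. Both called members of the 4 tested flowering repressors were lower (50%, against 8.85% of genes with a homologue), with a list median of -1.24. The count of repressors changed to 1 without V3 5 d replicates 1 and 3, V3 0 d replicates 2 and 3, V2 5 d replicates 1 and 2 and V2 0 d replicates 1, 2 and 3 in turn. TEM1, another repressor, had an interaction of -1.56 ± 0.66 (SE, limma adjusted p = 0.183). None of the 4 tested flowering promoters was called by limma, edgeR or DESeq2 (1 had an unadjusted limma p under 0.05), and their median interaction was 0.16. SPL3, the promoter with the most different change between zones, had an interaction of 1.21 ± 0.54 (SE, limma adjusted p = 0.202) and rose in V3.

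UFO, an F-box protein that acts with LEAFY on floral organs in A. thaliana, had 45.8, 86.5 and 80.5 normalized counts in V3 at 5 d and 294, 369 and 299.5 in V3 at 0 d, against 328, 268 and 353 in V2 at 5 d and 308, 372 and 310.4 in V2 at 0 d. As with TFL1, V3 at 5 d was below the other 9 libraries. Its interaction was -2.14 ± 0.34 (SE, limma adjusted p = 0.00371), with a log2 change of -2.21 in V3 and -0.06 in V2. CRC, a YABBY factor of carpels and nectaries, had 49.7, 74.9 and 84.2 normalized counts in V3 at 5 d and 231, 97 and 174 in V3 at 0 d, against 4.6, 0 and 3.6 in V2 at 5 d and 105 and 63.4 in V2 at 0 d (1 library left out). It fell in V2, and its change in V3 was not called; the interaction was 3.62 ± 0.94 (SE, limma adjusted p = 0.0478). The call of CRC held without V3 0 d replicate 1 and V2 5 d replicates 1 and 2 in turn and ended without each other library that held a value of it and could be left out. In FPKM, CRC had 5.15, 7.65 and 7.81 FPKM in V3 at 5 d and 22.1, 10.1 and 16.1 in V3 at 0 d, against 1.51, 0.841 and 1.34 in V2 at 5 d and 1.02, 8.6 and 4.77 in V2 at 0 d. Its V3 groups did not overlap in FPKM, and the interaction there was 0.17 on log2(FPKM + 0.5) and was not called (limma adjusted p = 0.881). UFO and CRC were the 2 tested members of the floral organ list, so it had 1 higher and 1 lower.

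Most boundary and meristem genes fell in V3. Of 7 tested, 6 fell in V3 (17.2% of genes with a homologue did) and 2 fell and 1 rose in V2; 4 had an interaction, all lower (57.1%, against 8.85%), with a median of -1.37. BOP2, a regulator of organ boundaries, had 155, 162 and 169 normalized counts in V3 at 5 d and 321, 303 and 352 in V3 at 0 d, against 307, 257 and 329 in V2 at 5 d and 168, 259 and 247 in V2 at 0 d. The interaction was -1.42 ± 0.26 (SE, limma adjusted p = 0.00923), with a log2 change of -0.999 in V3 and 0.42 in V2. Its 2 groups of V3 did not overlap. RAX2, a MYB factor of axillary meristem formation, had 11.7, 21.1 and 22.5 normalized counts in V3 at 5 d and 29.7, 61.5 and 73.5 in V3 at 0 d, against 223, 175 and 137 in V2 at 5 d and 64.8, 57.2 and 83.8 in V2 at 0 d. It fell in V3 and rose in V2, with no overlap of the zones at 5 d. Its interaction was -2.84 ± 0.54 (SE, limma adjusted p = 0.0107), with a log2 change of -1.48 in V3 and 1.36 in V2. KNAT6, a homeobox gene of meristem and boundary, had 140.3, 221 and 172 normalized counts in V3 at 5 d and 406, 384 and 405 in V3 at 0 d, against 359, 428 and 457 in V2 at 5 d and 381, 448 and 351 in V2 at 0 d, and an interaction of -1.26 ± 0.25 (SE, limma adjusted p = 0.0146). CUC1, which sets organ boundaries, had 53.6, 60.2 and 54.3 normalized counts in V3 at 5 d and 388, 269.8 and 269.7 in V3 at 0 d, against 173, 175 and 126 in V2 at 5 d and 352, 320.3 and 354 in V2 at 0 d. It fell in both zones and further in V3, with an interaction of -1.30 ± 0.28 (SE, limma adjusted p = 0.0202). The call of CUC1 ended without V2 5 d replicates 1 and 2 in turn. In FPKM it was not called (interaction -0.46 on log2(FPKM + 0.5), limma adjusted p = 0.109). RAX1 was not called (interaction -1.47 ± 0.46 SE, limma adjusted p = 0.0784). Summed over the 7, the level was 1028 to 1183 in V3 at 5 d and 1946 to 2837 in V3 at 0 d, against 2537 to 2772 in V2 at 5 d and 2099 to 3055 in V2 at 0 d, so V3 at 5 d was the lowest group.

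The dormancy genes had a median difference between V3 and V2 of -4.09 at 5 d and -2.16 at 0 d on the log2 scale. All 6 tested dormancy genes had a negative interaction, with a median of -0.91, while 57.2% of genes with a homologue had a positive one. The interaction of HIS1-3, named after its values were seen, was -0.008 (limma adjusted p = 0.998). HIS1-3 rose in both zones, by 2.19 in V3 and 2.20 in V2. Of the 6, 2 were called lower (33.3%, against 8.85% of genes with a homologue). HB53, 1 of the A. thaliana homeobox genes under BRC1 control, had 95.5, 84.4 and 76.8 normalized counts in V3 at 5 d and 299, 1601 and 757 in V3 at 0 d, against 1682, 2804 and 2409 in V2 at 5 d and 3864, 2401 and 2059 in V2 at 0 d. Its interaction was -2.80 ± 0.69 (SE, limma adjusted p = 0.0356), with a log2 change of -3.05 in V3 and -0.25 in V2. The call of HB53 held without V3 0 d replicates 1 and 2 and V2 0 d replicate 1 in turn and ended without each other library. DRMH1, a dormancy-associated gene, had 119.9, 68.6 and 24.3 normalized counts in V3 at 5 d and 875, 7134 and 5385 in V3 at 0 d, against 2803, 4413 and 4264 in V2 at 5 d and 8719 and 9160.0 in V2 at 0 d (1 library left out). The interaction of DRMH1 was -4.50 ± 1.15 (SE, limma adjusted p = 0.0444), with a log2 change of -5.76 in V3 and -1.25 in V2. The call of DRMH1 held without V3 5 d replicate 1 and V3 0 d replicate 1 in turn and ended without each other library that held a value of it and could be left out. V3 0 d replicate 1 had the lowest value of its group in both genes. HB40, the relative of HB53, had 51.6, 57 and 68.3 normalized counts in V3 at 5 d and 204, 208 and 273 in V3 at 0 d, against 101, 91.1 and 127 in V2 at 5 d and 280.3, 353 and 179 in V2 at 0 d. It fell in both zones and was not called (interaction -0.63 ± 0.37 SE, limma adjusted p = 0.341). HB21 had 0 in every usable library of V3 at 5 d and 0 in every usable library of V3 at 0 d, against 13.7, 126 and 67.4 in V2 at 5 d and 33.8 and 24.1 in V2 at 0 d (1 library left out), and NCED3, whose enzyme limits the rate of abscisic acid synthesis, had 253, 165 and 135 normalized counts in V3 at 5 d and 98.4, 711 and 235 in V3 at 0 d, against 1466, 2315 and 2312 in V2 at 5 d and 2193, 1111 and 1046 in V2 at 0 d. Neither was called, at an adjusted p of 0.686 for HB21 and an interaction of -1.06 ± 0.84 (SE, limma adjusted p = 0.489) for NCED3. With 1 library left out the count changed to 0 without V3 5 d replicates 2 and 3, V3 0 d replicate 3, V2 5 d replicates 1, 2 and 3 and V2 0 d replicate 2 in turn and 1 without V3 5 d replicate 1, V3 0 d replicate 2 and V2 0 d replicates 1 and 3 in turn.

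Among 13 tested abscisic acid response genes, 1 was called higher and 3 lower (30.8% in all, against 21.3% of genes with a homologue), with a median interaction of -0.68. ABI1, a phosphatase that holds the pathway off, had 417, 405 and 463 normalized counts in V3 at 5 d and 327, 530.0 and 370.2 in V3 at 0 d, against 2552, 2794 and 2427 in V2 at 5 d and 1001, 706 and 867 in V2 at 0 d. It rose in V2, as the senescing-leaf markers did, while its V3 groups overlapped. The interaction was -1.51 ± 0.25 (SE, limma adjusted p = 0.00544), with a log2 change of 0.10 in V3 and 1.61 in V2. ABI5, a bZIP factor that carries the response out, had 46.8, 13.7 and 35.6 normalized counts in V3 at 5 d and 382, 469 and 362 in V3 at 0 d, against 359, 633 and 515 in V2 at 5 d and 909, 928 and 1451 in V2 at 0 d. The interaction of ABI5 was -2.64 ± 0.56 (SE, limma adjusted p = 0.0193), with a log2 change of -3.77 in V3 and -1.13 in V2. RD29B, a target of the pathway, had 0 in every usable library of V3 at 5 d and 278 and 112 in V3 at 0 d (1 library left out), against 595, 1436 and 324 in V2 at 5 d and 615, 755 and 622 in V2 at 0 d (limma adjusted p = 2.59e-04), and in FPKM it was not called. The FPKM of the library left out was 0.252, and with zeros of an FPKM below 1 kept the call of RD29B ended (limma adjusted p = 0.222), as it did with zeros as deposited. PYL4, a receptor, rose in both zones and more in V3, with log2 changes of 1.92 in V3 and 0.95 in V2 and an interaction of 0.97 ± 0.26 (SE, limma adjusted p = 0.0458). The call of PYL4 held without V3 0 d replicates 1 and 3 and V2 0 d replicate 3 in turn and ended without each other library. RAB18, a dehydrin, varied widely within V3, with 1060.2, 839 and 160.1 normalized counts in V3 at 5 d and 121, 2211 and 1741 in V3 at 0 d, against 15976, 22018 and 13997 in V2 at 5 d and 9637, 4794 and 6044 in V2 at 0 d, and was not called (interaction -1.95 ± 1.42 SE, limma adjusted p = 0.449). TSPO, a membrane protein induced by abscisic acid, had an interaction of -3.20 ± 0.80 (SE, limma adjusted p = 0.0373) with log2 changes of -2.63 in V3 and 0.57 in V2. The call of TSPO held without V3 5 d replicate 2, V3 0 d replicate 1, V2 5 d replicate 1 and V2 0 d replicate 1 in turn and ended without each other library. The count of called response genes changed to 2 without V3 0 d replicate 2.

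More cell division and ribosomal protein genes fell in V2 than in V3. Of 12 tested S phase genes, 6 fell in V2 and none changed in V3, and of 13 tested G2/M genes likewise 6 fell in V2 and none changed in V3 (18% of genes with a homologue fell in V2). At an unadjusted p under 0.05, limma gave 1 change in V3 for the S phase genes and 0 for the G2/M genes. The interaction was positive in all 12 and all 13 (57.2% of genes with a homologue had a positive one), with medians of 0.62 and 1.01. Called higher were 1 S phase gene (8.33%) and 2 G2/M genes (15.4%), against 12.5% of genes with a homologue. These shares lie near 12.5%, so nothing is read from them. CYCA1;1, a cyclin of the S and G2 phases, had 2079, 1973 and 2332 normalized counts in V3 at 5 d and 2587, 1648 and 1447 in V3 at 0 d, against 584, 579 and 586 in V2 at 5 d and 1057, 1191 and 979.9 in V2 at 0 d. V2 at 5 d was below all other groups, and V3 at 5 d and V3 at 0 d overlapped. Its interaction was 1.09 ± 0.26 (SE, limma adjusted p = 0.0296), with a log2 change of 0.21 in V3 and -0.88 in V2. The call of CYCA1;1 held without V3 0 d replicate 1 and V2 0 d replicates 1 and 3 in turn and ended without each other library. AUR1, an Aurora kinase of mitosis, had an interaction of 1.25 ± 0.33 (SE, limma adjusted p = 0.0456). The call of AUR1 held without V3 0 d replicate 1 and V2 5 d replicate 3 in turn and ended without each other library. CDT1A, which licenses replication origins, had an interaction of 1.25 ± 0.34 (SE, limma adjusted p = 0.0491). The call of CDT1A held without V3 5 d replicate 2 and V3 0 d replicate 1 in turn and ended without each other library. The S phase count changed to 0 without V3 5 d replicates 1 and 3, V3 0 d replicates 2 and 3, V2 5 d replicates 1 and 2 and V2 0 d replicates 1 and 3 in turn and 3 without V3 0 d replicate 1. The G2/M count changed to 0 without V3 5 d replicates 1, 2 and 3, V3 0 d replicates 2 and 3, V2 5 d replicates 1 and 2 and V2 0 d replicate 2 in turn, 1 without V2 0 d replicates 1 and 3 in turn, 4 without V2 5 d replicate 3 and 7 without V3 0 d replicate 1. Of 6 kinesin genes, motors on microtubules, 4 fell in V2 (18% of genes with a homologue did), with a median interaction of 0.90. AT3G20150 was called higher (16.7% of the 6, against 12.5%), with an interaction of 0.80 ± 0.21 (SE, limma adjusted p = 0.0444). The call of AT3G20150 held without V3 0 d replicate 1 and ended without each other library. Without V3 0 d replicate 1, 3 kinesins were called. Of 11 histone genes limma and edgeR called 0 and DESeq2 called 2, while 4 had an unadjusted limma p under 0.05. Limma called 3 without V2 5 d replicate 3 and 4 without V3 0 d replicate 1, and the median interaction of the 11 was 0.62. HTB2, a histone H2B, had an interaction of 1.15 ± 0.33 (SE, limma adjusted p = 0.0593).

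Of 36 tested ribosomal protein genes, 27 fell in V2 and 10 fell in V3 (18% and 17.2% of genes with a homologue did), and 7 were called, all higher (19.4%, against 12.5%), with a median interaction of 0.59. PRPL11, a protein of the plastid ribosome, had 2564, 2821 and 2576 normalized counts in V3 at 5 d and 2608, 2410.1 and 2528 in V3 at 0 d, against 1134, 1294 and 1397 in V2 at 5 d and 1980.3, 2038 and 2071 in V2 at 0 d. V2 at 5 d was below the other 3 groups, and V3 at 5 d and V3 at 0 d overlapped. The interaction was 0.75 ± 0.12 (SE, limma adjusted p = 0.00474), with a log2 change of 0.08 in V3 and -0.68 in V2. RPL4 and GHS1, also of the plastid ribosome, had interactions of 0.75 ± 0.14 (SE, limma adjusted p = 0.0121) and 0.71 ± 0.15 (SE, limma adjusted p = 0.0159), and both fell in V2. The other 4 called were RPL21C, AT3G54210, PSRP3/1 and AT5G20290, named after their values were seen, with interactions of 0.59, 0.69, 0.79 and 0.68. The count changed to 3 without V3 5 d replicate 2, V3 0 d replicates 2 and 3, V2 5 d replicate 1 and V2 0 d replicate 2 in turn, 4 without V3 5 d replicates 1 and 3, V2 5 d replicate 3 and V2 0 d replicates 1 and 3 in turn and 22 without V3 0 d replicate 1.

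**Figure D4:**
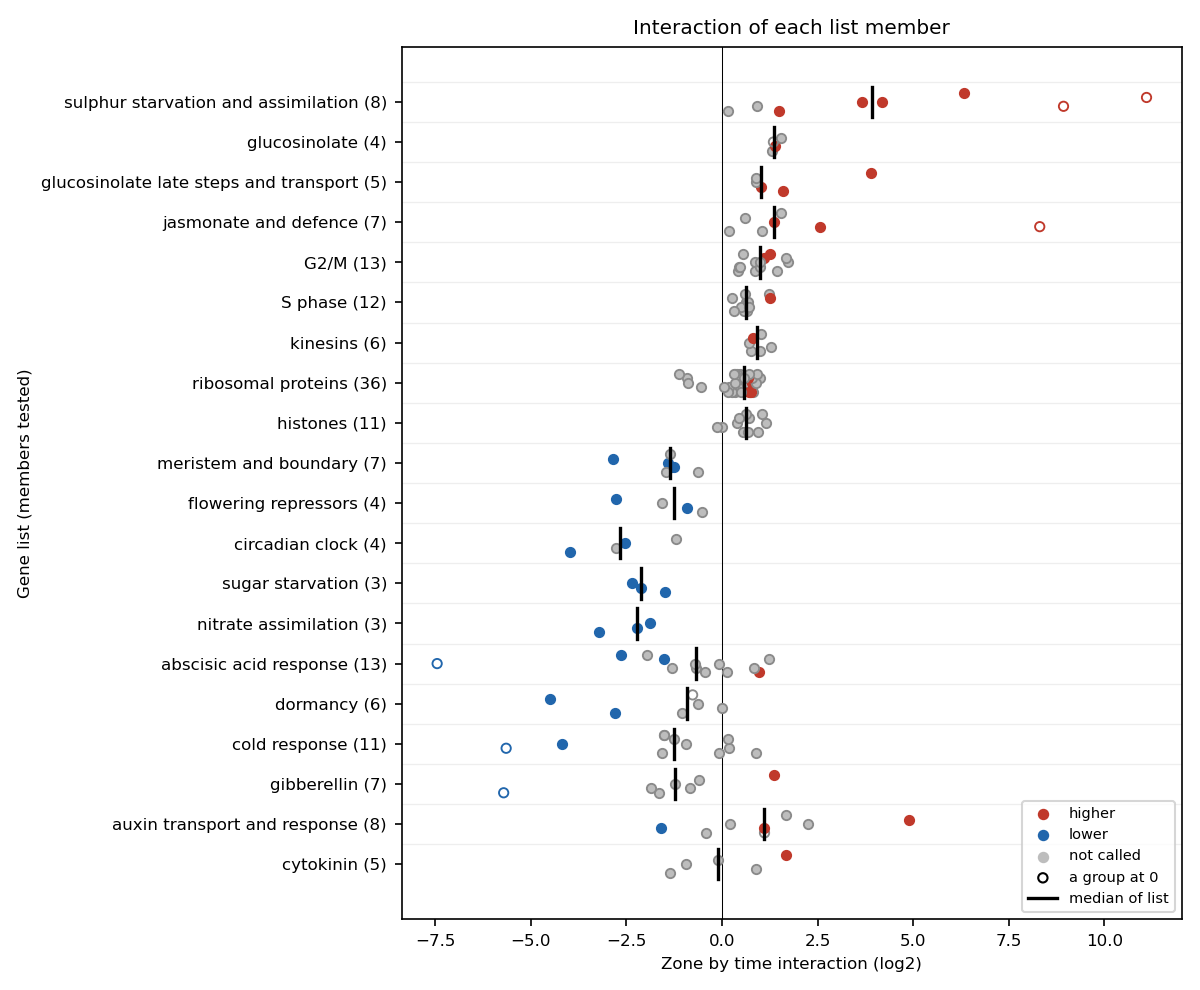
For each gene list, points give the interaction (log2 scale) of every tested member and a black bar their median; colours mark members called higher or lower, grey ones were not called, open points were listed at 0 in a whole group, and the number tested stands beside each list's name. The sulphur list, drawn up after its values had been seen, has a median of 3.92 and the sugar starvation list one of -2.12, against -0.005 over all genes tested.

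Jasmonate genes rose in both zones. All 7 tested rose in V3 and 6 rose in V2 (37.7% and 31.2% of genes with a homologue did). All 7 interactions were positive (57.2% of genes with a homologue had a positive one), with a median of 1.36, and 3 were called higher (42.9%, against 12.5%). JAZ9, a repressor that jasmonate both destroys and induces, had 3998, 4159.9 and 3036 normalized counts in V3 at 5 d and 140.4, 399 and 231 in V3 at 0 d, against 3559, 3827 and 2459.8 in V2 at 5 d and 1154, 1039 and 1498 in V2 at 0 d. V3 at 0 d was below V2 at 0 d without overlap, and the 2 zones overlapped at 5 d. Its interaction was 2.57 ± 0.46 (SE, limma adjusted p = 0.0081), with a log2 change of 3.97 in V3 and 1.41 in V2. JAZ10, of the same family, had 1472, 1962 and 1712 normalized counts in V3 at 5 d and 404, 529 and 359 in V3 at 0 d, against 1930.3, 1598 and 1246 in V2 at 5 d and 1065, 858 and 1097 in V2 at 0 d. It followed the same pattern, with an interaction of 1.35 ± 0.27 (SE, limma adjusted p = 0.015). LOX4, a lipoxygenase, had 1675, 832 and 1696 normalized counts in V3 at 5 d and 0 in every usable library of V3 at 0 d (1 library left out), against 2131, 877 and 1065 in V2 at 5 d and 175, 233 and 654 in V2 at 0 d (limma adjusted p = 1.41e-04). LOX2, the lipoxygenase of jasmonate synthesis in leaves, rose in both zones, with log2 changes of 5.23 in V3 and 3.68 in V2, and was not called (interaction 1.55 ± 0.57 SE, limma adjusted p = 0.138). HPL1, which takes fatty acid hydroperoxides away from jasmonate synthesis, rose in V3 and had an interaction of 3.69 ± 0.94 (SE, limma adjusted p = 0.0395). The call of HPL1 held without V3 0 d replicates 1 and 2 and V2 0 d replicate 3 in turn and ended without each other library. In V3 the vascular markers moved with these genes: all 3 tested, of 23 listed, rose there (37.7% of genes with a homologue did). In V2, 2 of the 3 rose (31.2% of genes with a homologue did), and the change of the other, PXY, was not called. The summed level of the 2 with every library usable was 2746 to 2976 in V3 at 5 d and 745 to 1649.6 in V3 at 0 d, against 1954 to 2020.3 in V2 at 5 d and 1284 to 2254 in V2 at 0 d. The V2 range at 5 d thus lay within that at 0 d. XCP1 was at 0 in V3 at 0 d, and XCP1 and XCP2 were at 0 in V2 at 0 d. Their part in the rises of the jasmonate genes was not tested. The zone difference of the jasmonate list had a median of 0.12 at 5 d and -1.23 at 0 d.

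Auxin and gibberellin genes had interactions in both directions. GH3.6, an enzyme that conjugates auxin to amino acids, had 2908, 2977 and 3263 normalized counts in V3 at 5 d and 11221, 11140.3 and 12008 in V3 at 0 d, against 9043, 10129 and 10706 in V2 at 5 d and 13054, 13137 and 10809 in V2 at 0 d. The 3 libraries of V3 at 5 d were below every other library. The interaction was -1.60 ± 0.15 (SE, limma adjusted p = 5.96e-05), with a log2 change of -1.91 in V3 and -0.31 in V2. Of 8 tested auxin genes 2 were called higher and 1 lower (37.5% in all, against 21.3% of genes with a homologue), with a median of 1.10. GH3.1, of the same enzyme family, had 255, 139 and 309.8 normalized counts in V3 at 5 d and 13.3, 0 and 0 in V3 at 0 d, against 277, 149 and 144 in V2 at 5 d and 41.1, 42.2 and 109 in V2 at 0 d, with an interaction of 4.89 ± 1.28 (SE, limma adjusted p = 0.0439). The call of GH3.1 held without V3 0 d replicate 1 and ended without each other library. Its 2 zeros in V3 at 0 d stood beside FPKM values of 0.555 and 0.624, against 0.327 FPKM in the library that had counts. In FPKM the interaction was 1.23 on log2(FPKM + 0.5) and was not called (limma adjusted p = 0.081). IAA4, an auxin response repressor, had an interaction of 1.09 ± 0.29 (SE, limma adjusted p = 0.0491). The call of IAA4 held without V3 0 d replicate 2 and V2 0 d replicate 2 in turn and ended without each other library. The auxin count changed to 1 without V3 5 d replicates 1, 2 and 3, V3 0 d replicate 3, V2 5 d replicates 1, 2 and 3 and V2 0 d replicates 1 and 3 in turn.

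Of 7 tested gibberellin genes 1 was called higher and 1 lower (28.6% in all, against 21.3%), with a median of -1.22. RGL1, a DELLA repressor of gibberellin response, had 134, 149 and 165 normalized counts in V3 at 5 d and 54.3, 73 and 64.2 in V3 at 0 d, against 74, 57.4 and 77.2 in V2 at 5 d and 85.8, 70.3 and 75.9 in V2 at 0 d, with an interaction of 1.37 ± 0.29 (SE, limma adjusted p = 0.0197). The call of RGL1 ended without V3 5 d replicate 3. GA20OX2, which makes the precursor of active gibberellin, had 0 in every usable library of V3 at 5 d and 38.4 and 54.9 in V3 at 0 d (1 library left out), against 44.4 and 43.1 in V2 at 5 d (1 library left out) and 34.7, 49.2 and 35.1 in V2 at 0 d (limma adjusted p = 9.6e-05). GA2OX2, which inactivates gibberellin, had 464, 403 and 449 normalized counts in V3 at 5 d and 606, 2983 and 1015 in V3 at 0 d, against 6632, 8221 and 7262 in V2 at 5 d and 6748 and 4735 in V2 at 0 d (1 library left out); its interaction of -1.86 ± 0.69 (SE, limma adjusted p = 0.136) was not called. The gibberellin count changed to 1 without V3 5 d replicate 3, V3 0 d replicates 2 and 3 and V2 5 d replicates 1 and 3 in turn and 5 without V3 0 d replicate 1. ARR4, a response regulator induced by cytokinin, was the 1 gene called of 5 tested cytokinin genes (20%, against 21.3%; median -0.11). It had 933, 920.2 and 901 normalized counts in V3 at 5 d and 529.9, 327 and 469 in V3 at 0 d, against 169.6, 226 and 123 in V2 at 5 d and 385, 236 and 181 in V2 at 0 d, and an interaction of 1.68 ± 0.42 (SE, limma adjusted p = 0.0372). The call of ARR4 held without V3 0 d replicate 1, V2 5 d replicate 2 and V2 0 d replicate 3 in turn and ended without each other library.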

How the data were processed

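Per the labels, RNA of lateral buds was sequenced as single reads of 150 bp from a directional library kit. The authors deposited normalized counts, which hold read counts divided by 1 factor per library (a signal, not raw counts), and, for the genes they listed as changed, FPKM values per library. The tools named in the submitters' processing notes were DESeq2, TopHat, StringTie and HISAT2, without roles or versions, and a genome build was not given in the sources used here. The deposited normalized counts were whole reads times a constant in each library: 100% of values came out whole within 0.05, which gave the reads recovered. No per-sample column was left unmapped (0), and cells of 1 displaced FPKM entry were not used.

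A listed 0 was left out where another library of its group had at least 20 or its FPKM was at least 1. Genes were tested that had 2 or more usable libraries in every group and a mean of at least 10, using limma 3.58.1 (R 4.3.3), with an intensity trend, on log2(value + 1), as 4 group means in 1 fit. Contrasts were the interaction, each zone's change and each zone difference; p-values were adjusted by the Benjamini-Hochberg method over the 16077 genes and called under 0.05. Where a value was left out, the fit used the libraries that remained, as said beside the gene. A fold on this scale understates changes of low genes. The scripts were tested on simulated data with known changes. edgeR 4.0.16 and DESeq2 1.42.0 were run as alternatives on the recovered reads of the 9965 genes with no such 0, where they called 701 and 1431. FPKM values were tested with limma on log2(FPKM + 0.5) over the 3863 genes that had them.

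The members, tests and lists were chosen with earlier results of these data known, and the sulphur, late glucosinolate and nitrate lists after their values here were seen. Genes named are the 10 with the largest interaction in each direction (called, with a homologue, all 12 libraries usable, no group at 0, mean of at least 100), up to 3 called and 1 uncalled member of each list, 9 genes of dormancy and flowering fixed by name where tested, and the unnamed gene with the smallest adjusted p in each direction. Other called list members, such as CUC1, NIA2, NIR1, APK, SDI1, GGCT2;1, SOT17, FMOGS-OX1 and PYL4, were named after their values were seen. Same-numbered replicates of different groups were not paired. Counts for fits that leave out each library, change the filter, the pseudocount or the scaling, or use a replicate block are given in the closing section. Genome coordinates and sequences were not used here.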

Additional observations from a re-analysis of the deposited data

Results flagged for a closer look

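For 1243 genes, the test of the interaction itself found the change over 5 days in V3 different from that in V2, and the named genes among them are given here with that difference on the log2(normalized count + 1) scale (V3 minus V2, limma adjusted p under 0.05, 3 libraries per group). With 3 libraries per group, single libraries were not tested as outliers. Among genes whose call held in each run that left out 1 library and could test them, those that rose in V3 with no called change in V2 had differences of 6.33 in LSU2, 4.21 in CP2, 3.91 in SOT16, 3.56 in GPT2, 1.59 in GL3, 1.38 in SUR1 and 1.48 in APK. Both zones rose, V3 more, with 5.66 in AT5G38130, 2.57 in JAZ9 and 1.35 in JAZ10. V3 rose while V2 fell with 4.18 in SDI2 and 3.67 in APR3. V2 fell with no called change in V3, with 0.75 in PRPL11, 0.75 in RPL4 and 0.71 in GHS1.

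The genes that fell in V3 with no called change in V2 had differences of -5.45 in DREB2A, -4.15 in AT5G62210, -3.98 in ELF4, -3.33 in MOT2, -2.87 in ATCTH, -2.64 in ABI5, -2.78 in TFL1, -2.14 in UFO, -1.42 in BOP2, -1.26 in KNAT6, -4.19 in COR28, -1.60 in GH3.6 and -0.88 in AT5G02860. V3 fell while V2 rose with -5.07 in AT3G19030, -4.08 in KMD1, -3.21 in NIA1, -3.13 in AT1G49500, -2.12 in TPS9, -2.34 in BZIP1, -1.49 in TPS11, -2.84 in RAX2, -2.54 in PRR5 and -2.22 in NIR1. V2 rose with no called change in V3 with -1.51 in ABI1 and -1.87 in NIA2.

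Some genes were listed at 0 in every usable library of 1 or more groups, and their difference, which depends on the pseudocount, was -7.45 in RD29B, -5.64 in GOLS3, -5.71 in GA20OX2, 5.68 in XTH18, 8.31 in LOX4, 2.23 in XCP1, 17.53 in Aa_G31840, -7.29 in Aa_G517440, 8.93 in GGCT2;1 and 11.10 in SDI1. Among these, SDI1 and GGCT2;1 passed the minimum mean only through V3 at 5 d, so their calls are not given as support. For XCP1, the call held without V2 5 d replicates 1 and 3 in turn and ended without each other library. The call of GGCT2;1 ended without V3 5 d replicates 1, 2 and 3 and V2 5 d replicate 1 in turn, and the runs in which it held took no value of it away.

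The call of the genes below, as of XCP1 and GGCT2;1, depended on single libraries. RGL1 (1.37) lost its call without V3 5 d replicate 3. CUC1 (-1.30) lost its call without V2 5 d replicates 1 and 2 in turn. The calls of GH3.1 (4.89) and AT3G20150 (0.80) held without V3 0 d replicate 1 and ended without each other library. The call of AT2G14900 (3.71) held without V3 0 d replicates 1, 2 and 3 and V2 0 d replicates 2 and 3 in turn and ended without each other library. The call of HPL1 (3.69) held without V3 0 d replicates 1 and 2 and V2 0 d replicate 3 in turn and ended without each other library. The call of TSPO (-3.20) held without V3 5 d replicate 2, V3 0 d replicate 1, V2 5 d replicate 1 and V2 0 d replicate 1 in turn and ended without each other library. The call of HB53 (-2.80) held without V3 0 d replicates 1 and 2 and V2 0 d replicate 1 in turn and ended without each other library. The call of DRMH1 (-4.50) held without V3 5 d replicate 1 and V3 0 d replicate 1 in turn and ended without each other library that held a value of it and could be left out. The call of CDT1A (1.25) held without V3 5 d replicate 2 and V3 0 d replicate 1 in turn and ended without each other library. The call of CYCA1;1 (1.09) held without V3 0 d replicate 1 and V2 0 d replicates 1 and 3 in turn and ended without each other library. The call of AUR1 (1.25) held without V3 0 d replicate 1 and V2 5 d replicate 3 in turn and ended without each other library. The call of SVP (-0.92) held without V3 5 d replicate 2, V3 0 d replicate 1 and V2 5 d replicate 3 in turn and ended without each other library. The call of CRC (3.62) held without V3 0 d replicate 1 and V2 5 d replicates 1 and 2 in turn and ended without each other library that held a value of it and could be left out. The call of ARR4 (1.68) held without V3 0 d replicate 1, V2 5 d replicate 2 and V2 0 d replicate 3 in turn and ended without each other library. The call of IAA4 (1.09) held without V3 0 d replicate 2 and V2 0 d replicate 2 in turn and ended without each other library. The call of PSAN (0.86) held without V2 0 d replicate 3 and ended without each other library. The call of SOT17 (1.61) held without V2 0 d replicate 2 and ended without each other library. The call of FMOGS-OX1 (1.02) held without V2 5 d replicate 2 and ended without each other library. The call of PYL4 (0.97) held without V3 0 d replicates 1 and 3 and V2 0 d replicate 3 in turn and ended without each other library.

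Other settings ended calls too. In FPKM the genes not called were GH3.1, RD29B, CRC, GOLS3, XTH18, Aa_G31840, Aa_G517440 and CUC1. With zeros of an FPKM below 1 kept, they were RD29B, CDT1A, CRC, IAA4, XTH18, XCP1 and SOT17, and with zeros as deposited GH3.1, AT2G14900, HPL1, TSPO, HB53, DRMH1, RD29B, CDT1A, CYCA1;1, AUR1, SVP, CRC, GOLS3, GA20OX2, ARR4, IAA4, XTH18, PSAN, XCP1, AT3G20150, SOT17, FMOGS-OX1 and PYL4. Without a trend they were GH3.1, HPL1, DRMH1, CDT1A, AUR1, SVP, CRC, PSAN, AT3G20150, GGCT2;1, SOT17 and PYL4. With a mean of at least 50 they were CDT1A, CRC, IAA4, PSAN, XCP1 and SOT17, with TMM scaling CDT1A, IAA4 and PSAN, and with edgeR GH3.1, AUR1, XCP1 and AT3G20150. Among genes with no group at 0 refitted alone they were GH3.1, DRMH1, CDT1A, AUR1, CRC, IAA4, PSAN, AT3G20150, SOT17, FMOGS-OX1 and PYL4. XCP1 also lost its call with DESeq2, with no filter on low values and among genes with no contradicted zero. The replicate block ended 17 named calls: GH3.1, HPL1, HB53, DRMH1, CDT1A, CYCA1;1, AUR1, SVP, CRC, IAA4, PSAN, XCP1, AT3G20150, GGCT2;1, SOT17, FMOGS-OX1 and PYL4.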

How the results depend on the processing

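The number of genes called ran from 1005 to 1311 with a pseudocount of 5, no filter on low values, a mean of at least 50, TMM scaling, no trend, or zeros with an FPKM below 1 kept, and no called gene changed sign with a call under any alternative on counts. On log2(FPKM + 0.5), an alternative chosen after seeing the data, 1193 of 3863 genes were called, 801 of them higher; of 607 called genes with FPKM, 507 were called the same way and 1 the opposite way. Zeros kept as deposited gave 764 (339 higher and 425 lower, 44.4% higher against 56.5% of the 1243), and 442 of the 1238 of these genes that could be tested were kept; that setting adds zeros that other libraries or FPKM contradict. Only genes with no such zero gave 815 (468 and 347) of 9965 tested, and on the reads of the same genes edgeR gave 701 (372 and 329) and DESeq2 1431 (801 and 630). Library weights gave 2824 (1574 and 1250); the cause was not tested. Refitting only genes with no group at 0, an alternative chosen after seeing the data, gave 798 (428 and 370), against 1014 of them in the full fit; the cause was not tested.

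With 1 library left out the count ran from 731 to 1979, with 395 to 1114 higher and 289 to 865 lower. It was highest without V3 0 d replicate 1; V2 0 d replicates 1 and 2 could be left out only for 10894 and 10954 genes. Replicate numbers did not pair the libraries (2 of 12 were closest to a library of their own number in another group, and the correlations of same-numbered deviations from the group means were -0.137 to 0.094), and the replicate block gave 889 genes (496 and 393). In each of 21 settings, 284 genes were called, 150 higher and 134 lower. These 21 did not cover every alternative given here. Of the 70 named genes that were called, 48 kept the call in each run that left out 1 library and could test them, and 42 of these in each other setting too.

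With 3 libraries a group the standard error had a median of 0.295, and 3812 genes had an unadjusted p under 0.05. Depth was lowest in V2 0 d replicate 3.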

Other observations

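Other gene groups had 0 or 1 called member. Of 5 tested flavonoid genes, 4 rose in V3 and 2 in V2 (37.7% and 31.2% of genes with a homologue did). GL3 was the 1 called (20%, against 12.5% of genes with a homologue called higher). The median interaction was 0.79, and 2 were called without V2 0 d replicate 2. CHS, the entry enzyme of the pathway, rose in both zones, with an interaction of 1.10 ± 0.38 (SE, limma adjusted p = 0.109). Of 7 wall-loosening genes, XTH18 was the 1 called (14.3%, against 12.5% of genes with a homologue called higher), with a list median of 1.21. Nothing is read from this share, which lies near 12.5%. XTH18, a wall enzyme, had 39 and 28.1 normalized counts in V3 at 5 d (1 library left out) and 0 in every usable library of V3 at 0 d, against 68.3 and 52.1 in V2 at 5 d (1 library left out) and 128, 59.2 and 96.3 in V2 at 0 d, and it was not called in FPKM. The FPKM of its library left out of V3 at 5 d was 0.217, and with zeros of an FPKM below 1 kept the call ended (limma adjusted p = 0.205), as it did with zeros as deposited. The wall count changed to 0 without V3 5 d replicates 1 and 3 and V2 5 d replicate 1 in turn, 2 without V3 0 d replicate 1 and 3 without V3 0 d replicate 3. EXLB1, an expansin-like gene, had 78.5, 74.3 and 4.5 normalized counts in V2 at 5 d. It had at most 5.8 in any library of the other groups. Its interaction of -5.10 ± 1.5 (SE, limma adjusted p = 0.0677) was not called. EXLB1 passed the minimum mean only through V2 at 5 d, so its rise in V2 is not given as support. Of 5 pentatricopeptide repeat genes, AT5G02860 was called lower (-0.88 ± 0.17 SE, limma adjusted p = 0.00997), a share of 20% against 8.85% of genes with a homologue. The list median was 0.52, and 2 were called without V2 0 d replicate 3.

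Of 3 heat shock genes limma, edgeR and DESeq2 called 0, with 2 at an unadjusted limma p under 0.05 and a median of -0.96. XCP1, a protease of dying vessel cells, rose in both zones, with 264, 307 and 319 normalized counts in V3 at 5 d and 0 in every usable library of V3 at 0 d, against 109, 78.2 and 27.8 in V2 at 5 d and 0 in every usable library of V2 at 0 d. It was the 1 of 3 tested vascular markers that was called (33.3%, against 12.5% of genes with a homologue called higher), with a median of 0.83. The call of XCP1 held without V2 5 d replicates 1 and 3 in turn and ended without each other library. XCP1 was called in 5 of 13 other settings, and not by edgeR or DESeq2. Of 2 senescing-leaf markers, limma, edgeR and DESeq2 called 0 and 0 had an unadjusted limma p under 0.05 (median -0.16), while both rose in V2 and 1 rose in V3. The 1 tested gene of abscisic acid metabolism was NCED3, and no strigolactone gene was tested. AT2G14900, a gibberellin-regulated gene, had 183, 266 and 229 normalized counts in V3 at 5 d and 13.3, 69.1 and 100.4 in V3 at 0 d, against 44.4, 54.5 and 35.9 in V2 at 5 d and 185, 110.4 and 88.4 in V2 at 0 d, and an interaction of 3.71 ± 0.86 (SE, limma adjusted p = 0.0275). The call of AT2G14900 held without V3 0 d replicates 1, 2 and 3 and V2 0 d replicates 2 and 3 in turn and ended without each other library.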
